A study of Rattus norvegicus with 6 samples.

Results

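The array used in this series carried 685 probes whose transcript identifier begins with MRuc, out of 24684 probes that were not controls. They were chosen by that prefix alone, which is used for rat counterparts of long noncoding RNAs in the UCSC catalogue of mouse genes. Each of the 685 transcripts had 1 probe, printed as 3 spots. The samples were pancreas of male rats aged 6 weeks, in a control group and a group with acute pancreatitis (AP), in which the gland is inflamed. AP was induced by infusing 1 mL/kg of 4% sodium taurocholate, a bile salt, backwards through the pancreatic duct, and these rats were killed after 9 h. For the control rats the labels name no treatment, so whether they had a sham operation is not known here. AP was sampled at 1 time, and the whole gland was taken, with all its cell types together.

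Long noncoding RNAs are transcribed and often spliced like messenger RNAs but hold no long open reading frame. Some act at the chromatin near the site where they are made, others bind proteins or small RNAs in the cytoplasm, and for most no function is known. Many are made at low levels and in few cell types, and their sequence changes faster in evolution than that of coding genes. In the pancreas most RNA comes from acinar cells, which make the digestive enzymes, so a noncoding RNA of a rarer cell type contributes little to a whole-gland extract. None of the 685 identifiers was paired with a gene in the RefSeq table for the rat (0 of 685 matched), so the transcripts are called by their identifiers, and their positions, sequences and functions are not analysed here.

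Each group had 3 deposited scans, but these came from 4 arrays on 1 slide. The array of control 2 was read again as control 3, and that of AP 2 as AP 3. The deviations of single spots from their probe's mean correlated at r = 0.952 and 0.954 in these pairs and at 0.214 to 0.699 in the other 13 pairs of scans (1649 spots of 619 probes of any class with a signal above 200). Scans of 1 array were therefore averaged, and each group counted as n = 2. The labels say that RNA was taken from each rat, but with 2 arrays per group the p-values measure only the spread between these arrays. Control arrays lay in slots 1 and 2 of the slide and AP arrays in slots 3 and 4, so slot and group cannot be told apart. Levels are given as log2 signal minus the 75th percentile over all non-control probes of the same scan, and a difference of 1 on this scale is 2-fold. That percentile was a signal of 140 to 147 on the control scans against 70.1 to 77.7 on the AP scans. Subtracting it removed a shift of −0.96 on the log2 scale between AP and control, so every difference below is relative to that shift. After it the median of all 13210 probes tested was 0.08.

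Marker genes of several cell types differed between the groups. All 9 T and B lymphocyte markers tested were higher on the AP arrays, where their summed relative signal (in multiples of the 75th percentile) was 44.0 to 45.6 per scan against 3.42 to 4.19 on the control scans. Of the lymphocyte markers on the array, Cd79b was above background on no control scan, and Cd4 was above it on no scan at all. Adipocyte markers fell in 6 of 7 cases, with a summed signal of 376 to 389 on the control scans against 12.7 on each AP scan. Erythroid markers fell in 4 of 5 cases, from 635 to 737 down to 29.4 to 30.2. Acinar markers rose in 8 of 15 cases and fell in 2, with sums of 87.7 to 89.1 and 96.2 to 108, so the labelled tissue was present in both groups (the list includes Cpa3, chiefly a mast cell enzyme, which fell). The inflammatory messengers Cxcl2, Ccl2, Il6 and Il1b were all lower on the arrays labelled AP, with sums of 143 to 144 against 3.02 to 3.27. Duct markers fell in 3 of 4 cases (sums of 15.7 to 17.0 and 4.12 to 4.36) and islet markers in 2 of 4 (8.40 to 10.3 and 3.605 to 4.40). Neutrophil markers fell in 2 of 5 cases and rose in 2 (16.5 to 18.2 and 1.18 to 2.28). Every direction follows the labels, and whether the labels of the groups were exchanged was not tested; an exchange would turn each rise into a fall. In whole tissue, fewer cells of a type and less RNA per cell cannot be told apart, and the part of these markers in the MRuc differences was not tested.

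Detection of MRuc probes was lower than that of the array as a whole. A probe counts as detected where the scanner software marked it well above background. On the control scans 331, 263 and 253 of the 685 probes were detected (48.3, 38.4 and 36.9%), and on the AP scans 197, 214 and 201 (28.8, 31.2 and 29.3%). Every AP scan was below every control scan. Over all non-control probes the shares were 62.3, 54.4 and 52.8% on the control scans against 44.1, 46.0 and 44.3% on the AP scans. The first control scan stood above the other control scans for both sets of probes. Across the 6 scans, 341 MRuc probes (49.8%) were detected on none, 182 (26.6%) on all and 162 on some. For all non-control probes 35.0% were detected on none and 40.5% on all. Among coding probes these shares were 26.9 and 48.1%, and among probes with the prefix MRAK, another class of noncoding transcripts on the array, 53.0 and 25.5%.

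**Figure D1:**
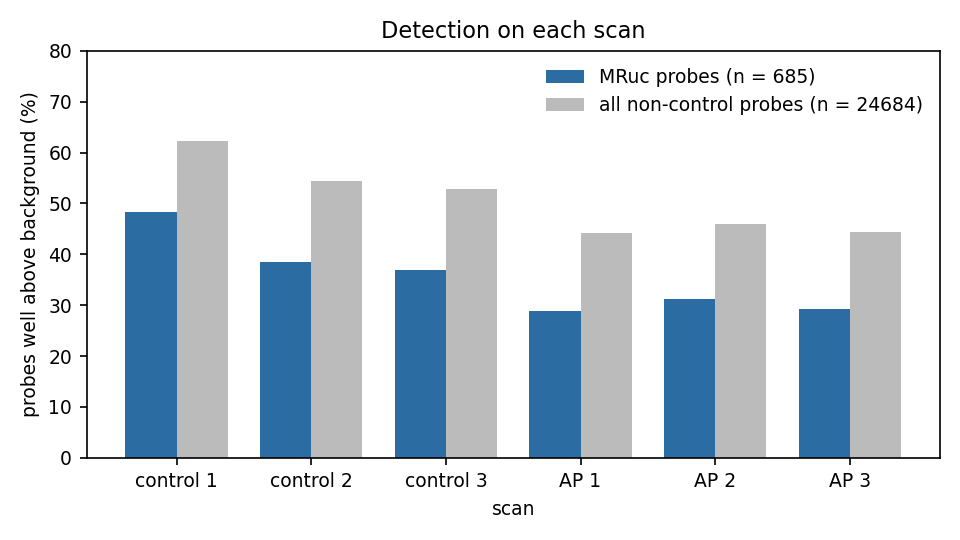
Percent of probes well above background on each of the 6 scans (x axis), for the 685 MRuc probes (blue bars) and all 24684 non-control probes (grey bars). The MRuc bars lie between 28.8 and 48.3% and are lower than the grey bars on every scan, and the 3 AP scans are lower than the 3 control scans for both sets.

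A probe entered the test of change where it was detected on at least 3 of the 6 scans. That kept 254 of the 685, and 253 could be fitted. Of the probes kept, 43 passed through the control scans alone and 2 through the AP scans alone, so the probes tested are not a sample of all 685. Their mean level on the control arrays ran from −4.20 to 7.22, with quartiles of −1.99, −0.74 and 0.63. On the AP arrays it ran from −4.17 to 9.24, with quartiles of −1.73, −0.70 and 0.95. These are signals of different probes and set no order of abundance between transcripts.

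Both groups had a narrow spread for most MRuc probes. The median gap between the 2 arrays of a group was 0.15 for control and 0.16 for AP on the log2 scale, the same as over all probes tested (0.15 and 0.16). A repeated scan of 1 array differed by a median of 0.034 (control) and 0.054 (AP). Gaps above 1, a 2-fold difference between arrays of a group, occurred in 11 probes (4.35%) for control and 3 (1.19%) for AP, against 3.92 and 4.37% over all probes. Within a scan the median SD over the spots of a probe was 0.154 to 0.170 on control scans and 0.190 to 0.211 on AP scans.

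**Figure D2:**
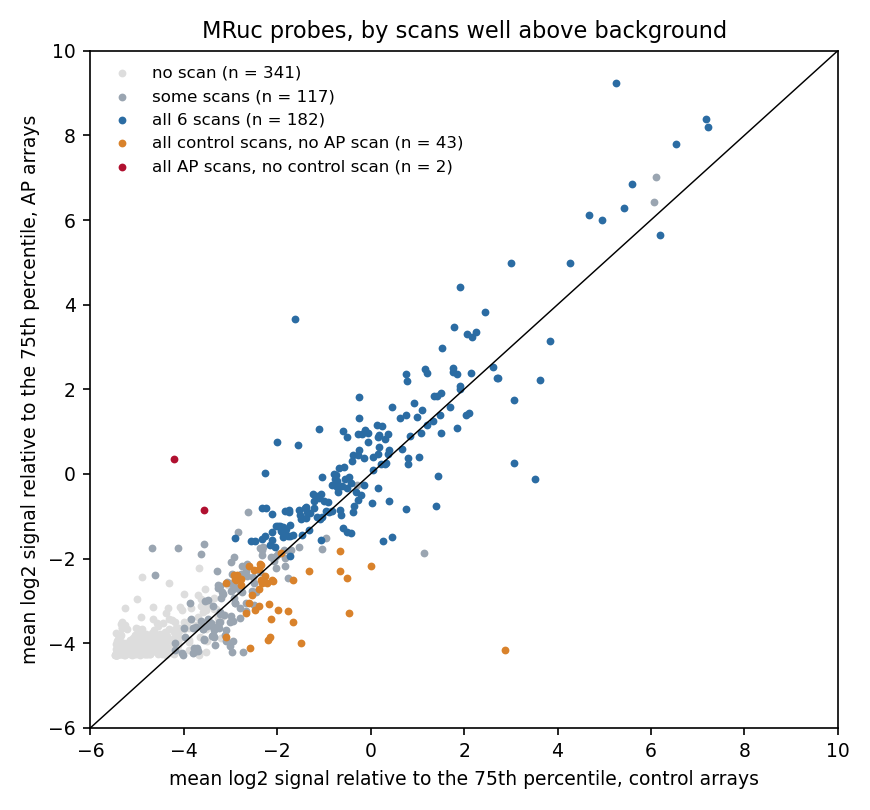
Mean log2 signal of all 685 MRuc probes on the control arrays (x axis) and the AP arrays (y axis), each relative to the 75th percentile of the scan, with points coloured by the scans on which the probe was well above background. Points on the diagonal line have the same level in both groups; the 43 probes detected on all control scans and no AP scan include 1 far below the line, and the 2 probes with the opposite pattern lie above it.

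Of the 253 MRuc probes tested, 87 were higher and 51 lower on the arrays labelled AP at an adjusted p below 0.05 (limma, Benjamini-Hochberg over 13210 probes, two-sided). The shares were 34.4 and 20.2%, against 26.9% higher and 28.2% lower over all probes tested. Together 54.5% of the MRuc probes were called, against 55.1% of all probes, so they changed about as often as the array as a whole. Rises made up 63.0% of the MRuc calls and 48.8% of all calls. The median log2 difference was 0.36, with quartiles of −0.25 and 0.75, beside 0.08 over all probes. Without the scaling 16 of the 253 MRuc probes were higher and 125 lower. Over all 13210 probes 768 were then higher and 7796 lower (5.81 and 59.0%). The MRuc median without scaling was −0.60, beside −0.88 over all probes. Rises then made up 11.3% of the MRuc calls, so the split between rises and falls follows the scaling, while the MRuc median was above that of all probes under both. Leaving out 1 array leaves 1 array in a group. The MRuc median was then 0.47 without control 1, 0.26 without the array of control 2, 0.40 without AP 1 and 0.30 without that of AP 2. In each of these fits fewer probes were called in either direction, both among MRuc probes and over all probes.

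The 87 rises had a median fitted size of 0.90 on the log2 scale, from 0.34 to 5.29, with 40 above 2-fold and 10 above 4-fold. They include 2 probes detected on AP scans alone, whose size is not measured. Most of the rises, 76 of 87, were detected on all 6 scans. Without scaling 43 of the 87 kept a positive sign, 16 were still called higher and 13 were called lower. The 51 falls had a median fitted size of 0.97, from 0.36 to 7.04, with 25 above 2-fold and 8 above 4-fold. Rises and falls together, 65 of 138 MRuc calls were above 2-fold, beside 3985 of 7280 calls over all probes. The count above 4-fold over all probes is not given. Of the 51 falls, 29 were detected on all scans and 19 on all control scans but no AP scan. For these 19 the AP signal was not above background, so the fitted size is not a measured one. They include the largest, MRuc008sbh at 7.04, and others above 4-fold (MRuc008imx, MRuc007msh and MRuc007kdv). All 51 were also called lower without scaling. Leaving the scaling out moves every difference by about −0.96, so no fall could turn into a rise there and this is no further support. Of the 115 probes not called, 63 had a 95% interval within 2-fold in both directions, and for the other 52 a larger change was not excluded.

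MRuc009bpr had the largest rise. Its level was −1.42, −1.80 and −1.87 on control scans 1 to 3 and 3.65, 3.70 and 3.66 on AP scans 1 to 3. The groups were far apart and the 2 AP arrays nearly coincided, AP scans 2 and 3 being readings of 1 array. The unscaled signals were 55.2, 40.2 and 40.01 against 974, 914 and 933. The group means were −1.63 ± 0.30 and 3.66 ± 0.02 (SD, n = 2), a difference of 5.29 ± 0.18 (SE), or 39.1-fold (limma adjusted p = 0.000719). Without scaling it was still 4.33.

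MRuc008bah was at −2.06, −1.97 and −1.96 on the control scans against 0.74, 0.80 and 0.77 on the AP scans. The difference was 2.77 ± 0.10 (SE; limma adjusted p = 0.000747), or 6.83-fold. MRuc008ymd was brighter in both groups, at 1.89, 1.95 and 1.94 against 4.40, 4.48 and 4.43, a difference of 2.51 ± 0.09 (limma adjusted p = 0.000804). MRuc007szp went from −2.20, −2.35 and −2.30 to 0.06, 0.05 and −0.04, a rise of 2.29 ± 0.10 (limma adjusted p = 0.001). All 3 also rose without scaling, by 1.81, 1.55 and 1.34.

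Another 4 probes rose by about 4-fold with all scans detected. MRuc007nww read −1.65, −1.44 and −1.44 on the control scans against 0.75, 0.59 and 0.64 on the AP scans (2.23 ± 0.13, limma adjusted p = 0.00152). MRuc009hnl read −1.17, −1.02 and −1.07, then 0.99, 1.13 and 1.15 (2.17 ± 0.12, limma adjusted p = 0.00134). In both probes the 2 arrays of a group lay close together. MRuc007wrp was at −0.30, −0.21 and −0.19 and then at 1.77, 1.86 and 1.83 (2.06 ± 0.10, limma adjusted p = 0.00112), and MRuc009ktv at 2.96, 3.05 and 3.06 and then at 4.94, 5.05 and 5.03 (1.98 ± 0.10, limma adjusted p = 0.00124). In each of these probes every AP scan was above every control scan. For all the rises named here that follows largely from the choice by size of change and is no further support.

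The rise of MRuc009ktl was less well measured. It was detected on control scan 1 but on neither scan of the second control array, with levels of −2.98, −4.25 and −4.08 on the control scans against −1.55, −1.75 and −1.78 on the AP scans. The difference was 1.92 ± 0.45 (limma adjusted p = 0.0316). Its adjusted p was 0.141 without scaling, 0.119 without AP 1 and 0.102 without the array of AP 2.

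**Figure D3:**
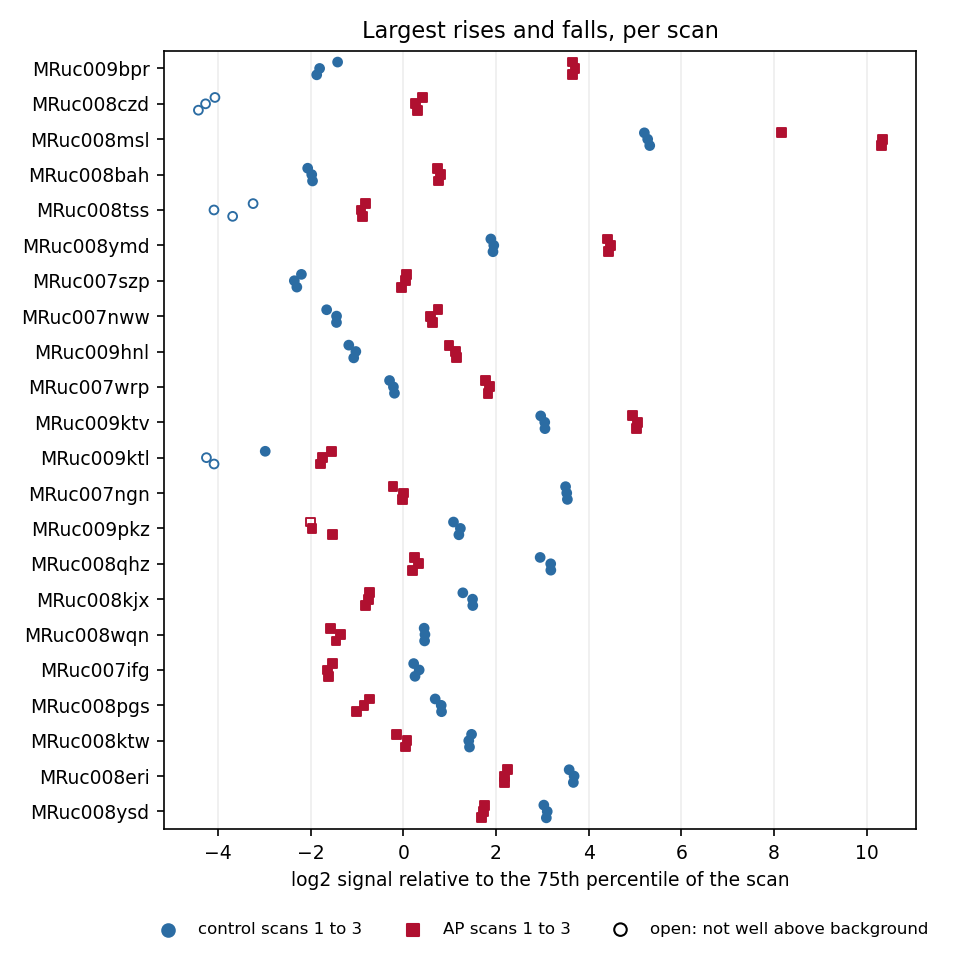
Log2 signal relative to the 75th percentile of the scan (x axis) for the 10 largest rises, the 2 probes detected on AP scans alone and the 10 largest falls among MRuc probes. Circles are control scans, squares AP scans, and open symbols are not well above background; MRuc009bpr moves from below −1 to above 3, and MRuc007ngn from about 3.5 to about 0.

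Among the falls, MRuc007ngn was the largest of those measured in both groups. It read 3.50, 3.53 and 3.54 on the control scans against −0.22, 0.00 and −0.02 on the AP scans, with unscaled signals of 1668, 1618 and 1698 against 66.7, 70.3 and 73.0. The means were 3.52 ± 0.02 and −0.11 ± 0.15 (SD, n = 2), a difference of −3.63 ± 0.12 (SE), or 12.4-fold lower (limma adjusted p = 0.000714). MRuc009pkz was at 1.08, 1.23 and 1.20 on the control scans against −2.002, −1.97 and −1.53 on the AP scans, the first of which was not well above background (−3.03 ± 0.14, limma adjusted p = 0.00102). MRuc008qhz was at 2.95, 3.18 and 3.18 and then at 0.25, 0.34 and 0.19 (−2.81 ± 0.12, limma adjusted p = 0.00097). In all 3 every AP scan was below every control scan, which again follows largely from the choice by size of change.

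The next falls were smaller, and the 2 arrays of a group lay about as close. MRuc008kjx read 1.29, 1.495 and 1.4997 against −0.73, −0.75 and −0.81, a difference of −2.14. MRuc008wqn read 0.45, 0.47 and 0.46 against −1.57, −1.35 and −1.45, a difference of −1.94. MRuc007ifg read 0.22, 0.34 and 0.25 against −1.53, −1.64 and −1.60, a difference of −1.84, which became −0.51 (limma adjusted p = 0.161) with normexp background correction and the 75th percentile. MRuc008pgs (−1.58), MRuc008ktw (−1.49), MRuc008eri (−1.41) and MRuc008ysd (−1.33) completed the 10, with limma adjusted p-values of 0.00217 to 0.00284. MRuc008eri and MRuc008ysd stayed well above the 75th percentile in both groups, at 2.22 and 1.74 on the AP arrays.

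A probe can also be detected in 1 group alone. For MRuc probes 43 of 685 (6.28%) were well above background on all 3 control scans and on no AP scan, against 6.83% of all non-control probes. The opposite pattern was found in 2 (0.292%), against 0.543% of all probes. Both shares were near those of the array, and the first pattern was the commoner one in both. The AP scans needed a higher relative signal for detection: the lowest detected signal of any probe was at −2.52 to −2.47 on AP scans and −3.78 to −3.67 on control scans. Another 21 MRuc probes were detected on all control scans and 1 or 2 AP scans, and 4 on all AP scans and 1 or 2 control scans. Without the second control array, which leaves control scan 1, the first pattern was met by 122 MRuc probes. The count over all probes in that setting is not given, so whether this increase is particular to MRuc is not known. Control scan 1 had 62.3% of all non-control probes detected, against 54.4 and 52.8% on the other control scans.

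Probes detected on control scans alone were mostly dim. Their control level ran from −3.09 to 2.88 with a median of −2.32, while probes detected on all scans had a median of −0.25. For such probes the fold is a lower bound, the control mean against the higher of 2 values on each AP scan, the lowest detected signal of any probe and the probe's own. The bound holds only for these scaled levels, and with other scaling or background correction the difference can be smaller than it. The bound was above 1 in 25 of the 43, above 2-fold in 7, and not above 1 in 18, for which no fold is given. All 43 entered the fit through the control scans alone, so its calls (19 lower, 2 higher and 22 neither) are no support for the detection pattern, and no p is given for these probes. The 2 called higher were MRuc007fft and MRuc007jeg, named after their values were seen, and their sign turned without scaling.

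MRuc008sbh stood far from the other 42. Its unscaled signals were 1033, 1083 and 1119 on the control scans against 4.39, 3.63 and 4.29 on the AP scans, or levels of 2.81, 2.95 and 2.94 against −4.15, −4.27 and −4.11. It was bright on all control scans and not well above background on any AP scan. The fall was at least 41.7-fold on these levels, but only −2.91 on the log2 scale with normexp background correction and the 75th percentile.

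MRuc007kdv, at −0.03, 0.07 and 0.02 on the control scans against −2.17, −2.28 and −2.06 on the AP scans, was at least 4.53-fold lower. MRuc008imx, at −0.57, −0.34 and −0.36 against −3.09, −3.30 and −3.63, was at least 4.12-fold lower. MRuc009ers, at −0.59, −0.45 and −0.43 against −2.32, −2.51 and −2.69, was at least 3.71-fold lower. With normexp background correction and the 75th percentile the differences of these 3 shrank to −0.40, −0.34 and −0.15. MRuc009rve (at least 3.11-fold), MRuc009byd (2.25), MRuc007msh (2.02), MRuc008gol (1.95), MRuc008akb (1.79) and MRuc007pvx (1.7) had smaller bounds, and the next probe had 1.67. With normexp and the 75th percentile the differences of MRuc009rve, MRuc009byd and MRuc007msh were −0.13, −0.068 and −0.057, and those of the other 3 changed sign.

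**Figure D4:**
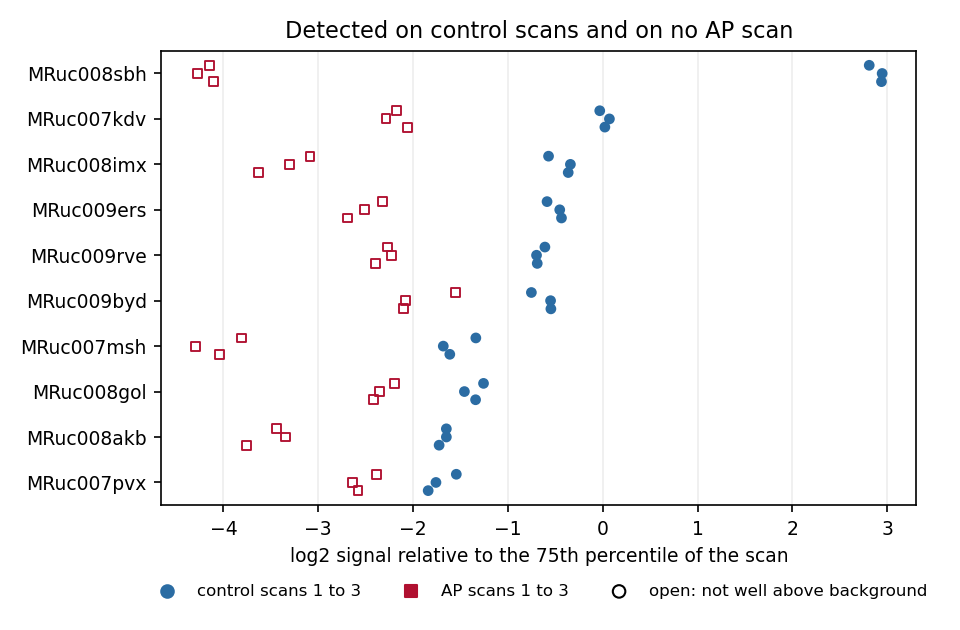
Log2 signal relative to the 75th percentile of the scan (x axis) for the 10 MRuc probes with the largest bound among those detected on all control scans (circles) and no AP scan (open squares). MRuc008sbh is near 2.9 on the control scans and below −4 on the AP scans, while the others differ by less.

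Only MRuc008czd and MRuc008tss were detected on all AP scans and no control scan. MRuc008czd had unscaled signals of 8.82, 7.31 and 6.82 on the control scans against 104, 84.1 and 92.0 on the AP scans. Its levels were −4.06, −4.26 and −4.42 against 0.42, 0.26 and 0.32, a rise of at least 17.0-fold on these scaled levels alone. MRuc008tss had signals of 15.6, 8.29 and 11.4 against 44.2, 37.3 and 40.1, and was at least 6.11-fold higher on the scaled levels alone. Both entered the fit through the AP scans alone, so no p is given. With normexp and the 75th percentile the differences of MRuc008czd and MRuc008tss were 1.285 and 0.80. Before scaling the differences were 3.598 and 1.75. That the AP scans of both lay above every control scan follows largely from the choice by detection and is no further support. Both probes carried the software's looser mark, a signal positive and significant against background, on control scans, so with that mark the pattern was met by 0 probes.

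The brightest 5 MRuc probes show how far scaling reaches. MRuc007pdb read 7.14, 7.21 and 7.23 on the control scans against 8.35, 8.45 and 8.42 on the AP scans (1.21 ± 0.10, limma adjusted p = 0.00299). MRuc007bhe read 6.50, 6.59 and 6.58 against 7.69, 7.92 and 7.91 (1.26 ± 0.13, limma adjusted p = 0.00427). Their differences without scaling were 0.25 and 0.30, neither of them called. MRuc008ygk read 6.02, 6.20 and 6.21 against 6.81 and 7.20, with no value on AP scan 3 because all its spots were marked there (0.90 ± 0.18, limma adjusted p = 0.0219, and −0.08 without scaling). On AP scan 2 its value rests on the third spot alone (10324), the others being marked. Its dimmer first spot (5582 on that scan) was kept on the control scans and AP scan 1, so the groups do not average the same spots. MRuc008lwr, at 7.04, 7.42 and 7.39 against 7.82, 8.54 and 8.62, missed the threshold (0.98 ± 0.32, 95% interval 0.05 to 1.90, limma adjusted p = 0.0719). It passed the threshold under 7 alternatives, among them the median of its spots (0.85, limma adjusted p = 0.00540) and leaving out AP 1 (1.36, limma adjusted p = 0.0353). Its first spot read 6095 on control scan 1 and 5745 on AP scan 1, where its second spot read 39239 and 30352.

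For some probes the 3 spots of a scan did not agree. Of the 253 probes tested, 22 had spots more than 4-fold apart on at least 1 scan, 6 of them called higher and 1 lower. The share over all probes tested is not given, so whether this is particular to MRuc is not known. Both dim and bright probes were among the 22. The dim MRuc009dbq, for example, had spots of 4.80, 57.1 and 52.9 on AP scan 1. MRuc008msl, among the 5 brightest and with the second largest rise among probes not confined to AP scans, was also 1 of the 22. The level of MRuc008msl was 5.20, 5.27 and 5.32 on the control scans against 8.16, 10.33 and 10.32 on the AP scans (4.00 ± 0.80, limma adjusted p = 0.021). The 3 spots on control scan 1 had signals of 5624, 5213 and 82714, and those on AP scan 1 had 16329, 7497 and 89793. On AP scan 2 all 3 were high, at 94502, 86526 and 86624. The third spot was thus high on every scan, and it was marked as an outlier on each control scan and left out there. With marked spots kept the rise was 2.68 (limma adjusted p = 0.0555), and in the deposited normalized values it was 2.08 (limma adjusted p = 0.0877). It had an adjusted p of 0.0967 without control 1 and 0.100 without the array of control 2.

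MRuc007jok, called higher by 1.45 ± 0.37 (limma adjusted p = 0.0394), had spots that moved differently. Its first spot read 1520, 1403 and 1512 on the control scans against 1334, 7128 and 7677 on the AP scans. The second spot read 5786, 5489 and 5742 against 6298, 6327 and 6933, and the third 6208, 5832 and 6085 against 6813, 6984 and 7466. Before scaling these 2 moved little, and the first spot was high on the second AP array alone. With the median of its spots the rise was 1.20 (limma adjusted p = 0.00583). MRuc008rkv was the reverse case, not called at 1.24 (limma adjusted p = 0.231) with a first spot that read 891 on control scan 1 and 810 on AP scan 1, while that spot on the other scans and the other spots on all scans read 10111 to 14719. With the median of its spots it rose by 1.30 (limma adjusted p = 0.00385). These 2 probes were named after their values were seen.

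Split by mean level, MRuc probes differed most from the array in the brighter range. All 13210 probes tested were cut by mean signal into 4 bands of equal size. In the lowest band 25.9% of 85 MRuc probes were higher and 16.5% lower, beside 17.1 and 22.5% of all probes. In the second band the shares were 25.7 and 24.3% of 70 MRuc probes, beside 26.9 and 22.6%, and so nearly the same. The third band had 46.2 and 17.3% of 52, beside 27.7 and 32.0%, and the highest had 23 of 46 higher and 23.9% lower, beside 35.9 and 35.8%. The MRuc medians were 0.22, 0.31, 0.51 and 0.67 from the lowest to the highest band, and −0.73, −0.65, −0.44 and −0.28 without scaling, where those of all probes were −0.90, −0.75, −0.98 and −0.86. These are descriptions, and no test of the difference between MRuc and other probes was made.

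**Figure D5:**
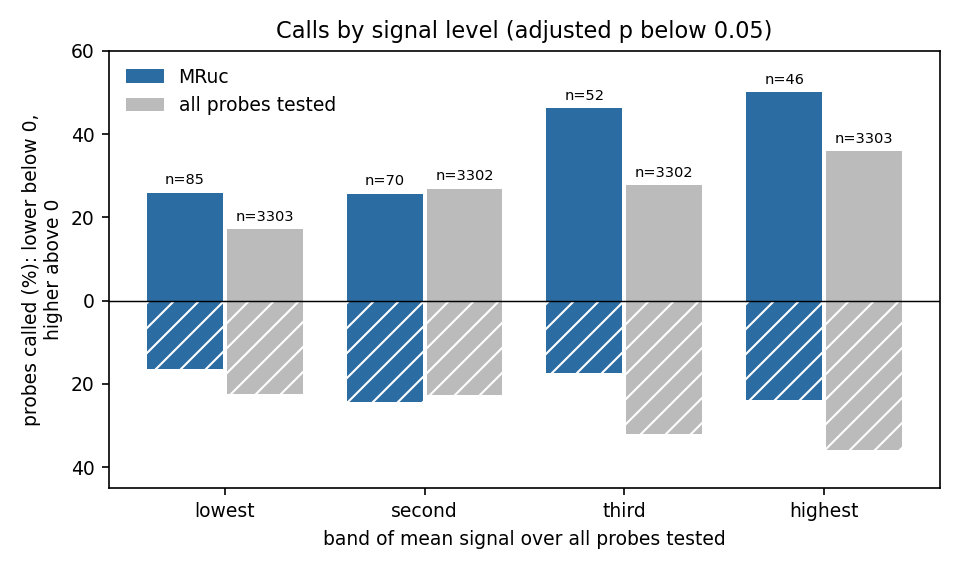
Percent of probes called higher (plain bars, above 0) or lower (hatched bars, below 0) on the arrays labelled AP, by band of mean signal, for MRuc probes (blue, 85, 70, 52 and 46 probes) and all probes tested (grey). The share called higher among MRuc probes is 25.9 and 25.7% in the lower bands, 46.2% in the third and 23 of 46 in the highest.

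The same shares in other classes of probes on the array are given for comparison. MRAK probes were higher in 34.2% and lower in 19.7% of those tested, with a median of 0.32, and probes with XR_ or NR_ accessions in 31.0 and 21.1%, with a median of 0.24. Probes for ultraconserved elements were higher in 34.9% and lower in 3.93%, with a median of 0.53. Coding probes were higher in 24.3% and lower in 31.4%, with a median of −0.03. The MRuc values of 34.4 and 20.2% lay beside those of MRAK. No difference between classes was tested.

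Of the 138 calls, 19 (listed after their values were seen) were made in the same direction under all 21 alternatives of the fit, 10 of them rises and 9 falls. The count over all 7280 calls is not given, so 19 of 138 is no result about MRuc probes. Some alternatives could hardly change a call: leaving out the repeated scan AP 3 kept all 138, and leaving out scaling cannot turn a fall into a rise. The rises were MRuc009bpr, MRuc008bah, MRuc008ymd, MRuc007szp, MRuc007nww, MRuc009hnl, MRuc007wrp and MRuc009ktv, described above, with MRuc008gac and MRuc008uyy. MRuc008gac read 0.69, 0.83 and 0.83 on the control scans against 2.40, 2.34 and 2.33 on the AP scans (1.61 ± 0.11, limma adjusted p = 0.00191). MRuc008uyy read −0.59, −0.60 and −0.64 against 0.92, 1.13 and 1.05 (1.61 ± 0.11, limma adjusted p = 0.00204). The falls were MRuc007ngn, MRuc008qhz, MRuc008kjx, MRuc008wqn, MRuc008pgs, MRuc008ktw, MRuc008eri, MRuc008ysd and MRuc007tcw. MRuc007tcw had a small change that was tightly measured, from 3.84, 3.84 and 3.85 to 3.17, 3.14 and 3.14 (−0.69 ± 0.09, limma adjusted p = 0.00766). Probes detected in 1 group alone could not be among the 19, because 1 alternative keeps only probes detected on all scans. The calls held but the sizes did not: with normexp, which adds an offset of 50 to the signal, MRuc009bpr rose by 3.22, MRuc008bah by 1.17 and MRuc007szp by 0.86, and MRuc007ngn differed by −2.82 and MRuc008wqn by −0.72.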

How the data were processed

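Agilent Feature Extraction 11.0.1.1 read the arrays in 1 colour, per the file headers. Spot intensities in the deposited scanner files had been background-subtracted and detrended by that software, per the file headers, and not scaled between arrays. The deposited normalized values are in log2; how they were made is not stated in these sources. Per the labels' protocols, ribosomal RNA was removed and the RNA was labelled with Cy3 from random primers.

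Control spots and spots marked as outliers were left out, log2 intensities were averaged over the spots of each probe, and the scan's 75th percentile was subtracted. Scans of 1 array (r of spot deviations above 0.9, probes with a signal above 200) were averaged. Probes well above background on at least 3 scans were fitted with limma 3.58.1 (lmFit and eBayes, R 4.3.3, 2 residual degrees of freedom), adjusted by Benjamini-Hochberg over all probes, with a threshold of 0.05. The procedure was tested on simulated data. No spot was saturated. Precision is limited by 2 arrays per group.

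Named were the probes detected in 1 group alone (at most 10 each way, by bound), the 10 largest rises and falls among the other calls and the 5 brightest. The members and lists were chosen with earlier results of these data known. Tables were made with Python 3.11.15, pandas 2.3.3, numpy 2.4.6 and matplotlib 3.10.9. The value of 1 marker gene is not reported here.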

Additional observations from a re-analysis of the deposited data

How the results depend on the processing

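Counts of MRuc probes higher and lower on the arrays labelled AP, 87 and 51 of 253, became 16 and 125 without scaling and 22 and 14 with normexp and the 75th percentile. Over all 13210 probes tested the counts went from 3554 and 3726 to 768 and 7796 and to 932 and 1720. At an adjusted p below 0.01 the MRuc counts were 42 and 29, and the count over all probes is not given. Without a filter on dim probes 223 of 684 MRuc probes were higher, beside 6800 of 24636 over all probes. With probes detected on all 6 scans 31 of 182 were lower, beside 2846 of 9994. Leaving out scans or arrays gave 47 to 87 higher and 30 to 53 lower. Where that left 1 array in a group, fewer of all probes were called too, so lower counts there are no result about MRuc probes. Without control scan 3, 86 MRuc probes were higher and 51 lower, beside 3556 and 3741 over all probes. Without AP scan 3 these counts were 87 and 53, beside 3539 and 3689. The median MRuc difference of 0.36 turned to −0.60 without scaling. It was 0.52 with the percentile over detected probes and 0.082 with normexp and quantile normalization. It was 0.56 without a filter, 0.51 for probes detected on all scans and 0.26 to 0.47 with scans left out. The 43 probes detected on control scans alone became 25 with a bound above 1 and 43 to 122 with scans left out, and the 2 on AP scans alone became 0 with the looser mark, 4 with 1 scan per array and 2 to 5 with scans left out. For these detection settings the counts over all non-control probes are not given. With normexp and the 75th percentile MRuc008gol, MRuc008akb and MRuc007pvx turned to 0.078, 0.083 and 0.12, and without scaling MRuc008ygk to −0.079. The cause of these changes was not tested. Of 741 values for 36 named probes under alternatives, 700 kept direction and side of the threshold. Keeping outlier-marked spots, taking the median of spots, the bound above 1 and the crossed block were added after seeing the data. With the replicate number as a block 60 of 253 MRuc probes were higher and 35 lower, with a median of 0.36. Over all 13146 probes in that fit 2587 were higher and 2930 lower. The labels do not say that the numbers pair rats, and deviations of same-numbered arrays correlated at r = −0.21 over 13146 probes. With the numbers crossed in the block 91 MRuc probes were higher and 49 lower, and the count over all probes is not given.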
